A study of Danio rerio with 2 samples.

Results

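The cells described here are neurons with isl1 and prph, 199 of 11283 cells that passed the authors' quality filter. A cell was a member if it held at least 3 unique molecular identifiers (UMIs, the tags that mark single captured RNA molecules) of isl1 and prph together and at least 1 of elavl3 and elavl4 together. It also had to hold no UMI of phox2bb, fewer than 2 of slc6a5 and slc32a1 together, and fewer than 3 of vip, vipb, galn and nos1 together. The members were thus chosen by the measured UMIs of these genes, whose levels are given below only as a description.

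The series was made to ask how melanocyte stem cells respond to the loss of pigment cells when the enzyme Aldh2 is inhibited. Zebrafish embryos of the line Tg(crestin:mCherry;mitfa:GFP), which label neural crest and pigment lineages, were kept from 24 hpf in MoTP, a prodrug that kills pigment-producing melanocytes. It was given together with CVT-10216, an inhibitor of the enzyme ALDH2, or with the solvent DMSO, and MoTP was washed out at 64 hpf. At 72 hpf, 8 h after the washout, trunks of many embryos per condition were dissociated and pooled, and cells positive for GFP, mCherry or both were sorted together for 10x 3′ single-cell RNA sequencing. Both conditions therefore carried both transgenes and had had MoTP, there was 1 library per condition, and no untreated embryos were analysed here. With 1 library per condition there is no replicate spread: no test was made, and the 95% intervals cover counting error only.

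Motor neurons carry the commands of the spinal cord to muscle and release acetylcholine. Rohon-Beard cells of the dorsal spinal cord and neurons of the dorsal root ganglia carry touch and pain from the skin, and the dorsal root ganglia come from the neural crest. Both motor and sensory neurons use the LIM homeodomain factor isl1 as they differentiate, and the intermediate filament protein peripherin, from prph, is typical of neurons that send axons into the periphery.

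Of the members, 123 came from the CVT-10216 library and 76 from the DMSO library. They were 1.81% (exact 95% interval 1.51 to 2.16%) of 6795 CVT-10216 cells and 1.69% (1.34 to 2.12%) of 4488 DMSO cells. Among the 4275 cells with a UMI of elavl3 or elavl4, which encode RNA-binding proteins of neurons, members were 5.10% (4.26 to 6.06%) in the CVT-10216 library and 4.08% (3.23 to 5.08%) in the DMSO library. The other 4076 such cells, called other neurons below, are a mixture: 2177 held phox2bb, a factor of autonomic and enteric neurons, 436 held at least 2 UMIs of the glycine or GABA transporter genes slc6a5 and slc32a1, and 1463 fell in neither set. The cells of that last set held few neuronal transcripts, a median of 14.5 UMIs per 10000 of a list of 44 pan-neuronal genes with CVT-10216 and 21.2 with DMSO.

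The members were shallower than the cells they were compared with, at a median of 5831 UMIs with CVT-10216 and 4262 UMIs with DMSO, against 10772 and 10998 UMIs in other neurons. All filtered cells had a median of 9487 UMIs with CVT-10216 and 8581 UMIs with DMSO. The libraries shared 4 cell barcodes, none of them a member's. Levels below are counts per 1e6 UMIs (CPM), summed over the cells of a group, so deep cells weigh more: the 5 deepest members held 17.2% of the members' UMIs with CVT-10216 and 25.8% with DMSO. In such sums, fewer cells with a transcript and less of it per cell cannot be told apart, so shares of cells with a UMI are given beside them, together with the share seen once all cells were reduced to 2000 randomly drawn UMIs. This thinning left out 8 CVT-10216 and 6 DMSO members that were shallower. Macrophages, 118 cells with CVT-10216 (median 12830.0 UMIs) and 85 with DMSO (9933), served as cells that should lack neuronal genes. They were picked to hold no UMI of elavl3 and elavl4. Macrophages with stray neuronal RNA may thus have been left out, which can lower the neuronal background they show.

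Of the genes the rule used, isl1 had 568 CPM in CVT-10216 members and 849 CPM in DMSO members, with a median of 5 UMIs per cell in each library. prph had 327 and 384 CPM in the members of the same libraries, with a median of 1 UMI per cell. It was concentrated in fewer cells, up to 44 UMIs in 1 CVT-10216 member and 29 in 1 DMSO member. Of the members, 95 held UMIs of both genes, 90 of isl1 alone and 14 of prph alone. UMIs of both genes were thus seen in 47.7% of the members. At the limit of the rule, the 25 members with exactly 3 UMIs of isl1 and prph had a median of 3755 UMIs in all, and the 37 cells kept out with 2 UMIs had a median of 3072 UMIs.

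The neuronal label was checked against markers of differentiated neurons. The stathmin gene stmn2a was seen in 137 members and the G-protein subunit gene gng3 in 146, while 35 members held neither. Over the 44 pan-neuronal genes, the median member held 175 UMIs per 10000 with CVT-10216 and 201 with DMSO, against 49.0 and 52.9 in other neurons. However, 27 members (18 with CVT-10216, 9 with DMSO) held fewer than 50 pan-neuronal UMIs per 10000, and these were deep cells, at a median of 16346 UMIs. They are called weakly neuronal below, a limit set after the values had been seen.

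The sort gate for GFP and mCherry sets how many members were captured, so the shares above are shares of sorted cells. The transcripts of the transgenes were scarce in members. A UMI of GFP was seen in 17.9% of CVT-10216 and 9.21% of DMSO members, against 25.3 and 15.1% of other neurons and 10.2 and 16.5% of macrophages. A UMI of mCherry was seen in 4.07 and 1.32% of members, against 16.9 and 24.9% of other neurons and 5.93 and 2.35% of macrophages. Members are shallower than macrophages, but thinned shares were also low for GFP, at 5.22 and 2.86% of members and 4.27 and 6.02% of macrophages. Macrophages passed the same sort gate, so their shares are not a background known to lack the transgenes. Which members carried the fluorescent proteins, which the sort measured, could not be read from this RNA. crestin, the neural crest gene whose promoter drives mCherry, had 12.2 and 7.65 CPM in members, against 25.7 and 27.1 CPM in other neurons.

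Motor and sensory transcripts divided most members. Cells were sorted by UMIs of a motor-defining list (mnx1, mnx2a, mnx2b, chata, slc18a3a, slc18a3b and slc5a7a) and a sensory-defining list (14 genes, among them pou4f1, prdm12b, drgx, tlx3b and p2rx3a), with at least 2 UMIs counted as present. By this rule 74 members were motor-like, 76 sensory-like, 23 held both lists and 26 neither. Motor-like members were 36.6% (28.1 to 45.7%) of CVT-10216 members and 38.2% (27.2 to 50%) of DMSO members. Sensory-like members were 35.8% (27.3 to 44.9%) with CVT-10216 and 42.1% (30.9 to 54.0%) with DMSO. The intervals overlap between the libraries for both kinds.

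Macrophages, which were picked without elavl3 and elavl4 UMIs, rarely reached these lists. The motor list reached 2 UMIs in 50.4% of CVT-10216 members and 46.1% of DMSO members, and in 0 of 118 and 0 of 85 macrophages, which allows shares of up to 3.08% and 4.25%. The sensory list reached it in 49.6% of CVT-10216 and 50% of DMSO members, against 1.69% and 3.53% of macrophages. These shares depended on depth and on which cells were kept. In members thinned to 4000 UMIs, the motor list reached 2 UMIs in 34.2% with CVT-10216 and 23.8% with DMSO, and the sensory list in 46.8 and 64.3%. This thinning leaves out the shallower members, and more of the motor-like ones. Under 4000 UMIs were 24 of 45 motor-like members with CVT-10216 and 22 of 29 with DMSO, against 11 of 44 and 5 of 32 sensory-like members. Other neurons also held these transcripts. Among the deeper phox2bb neurons, with medians of 19266 UMIs with CVT-10216 and 16824 with DMSO, 29.6% and 16% reached the motor list and 27.6% and 13.9% the sensory list. Neurons with slc6a5 or slc32a1 were shallower than members, at medians of 4387 and 3129 UMIs. Of these, 12.5% and 8.59% reached the motor list and 27.5% and 20.9% the sensory list. The members that held both lists were 13.8% (8.26 to 21.2%) with CVT-10216 and 7.89% (2.95 to 16.4%) with DMSO. Scrublet, which scores cells for resemblance to simulated doublets, called 1 cell in the CVT-10216 library and 0 in the DMSO library and so did not separate doublets here. Whether cells with both lists are doublets was not tested.

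**Figure D1:**
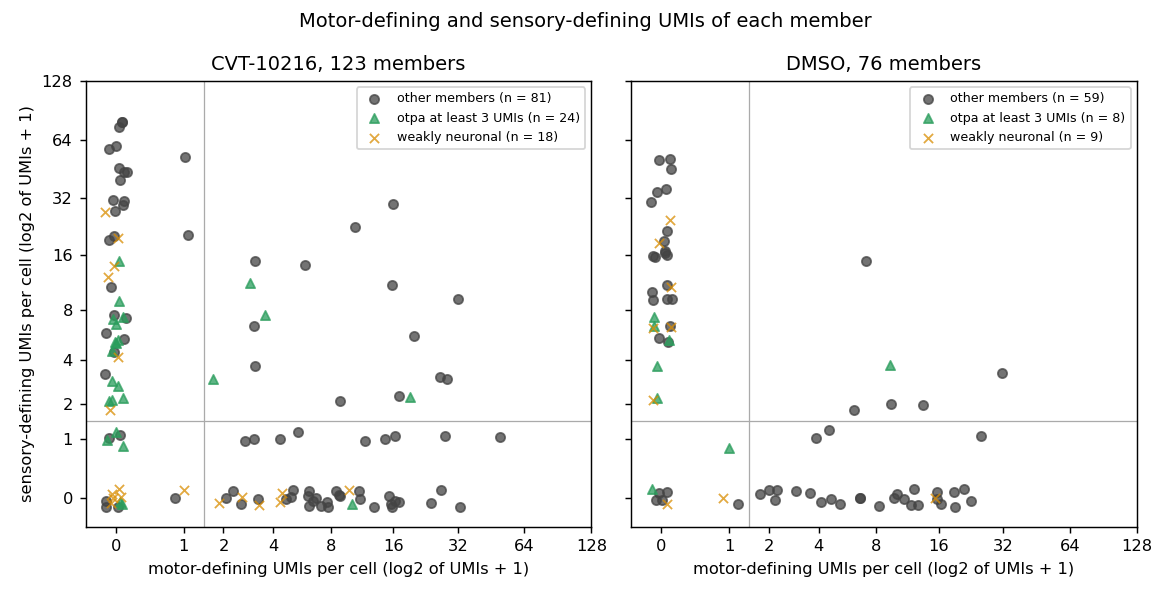
UMIs of the motor-defining list (x axis) against UMIs of the sensory-defining list (y axis), both as log2 of UMIs + 1, in each member of the CVT-10216 library (left, 123 cells) and the DMSO library (right, 76 cells), with a small random shift so that points do not cover each other. Most cells lie near 1 of the axes, and 17 CVT-10216 and 6 DMSO members hold at least 2 UMIs of both lists.

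Against other neurons, 489 of 15572 genes tested (3.14%) were at least 4-fold higher in members in both libraries, and 188 (1.21%) were at least 4-fold lower. The median gene had a log2 ratio of members over other neurons of 0.12 with CVT-10216 and 0.30 with DMSO. Only genes with at least 50 UMIs summed over the groups compared were counted. Of the motor-defining list, 5 of 6 genes tested were at least 4-fold higher (median log2 ratio 2.86 with CVT-10216 and 3.72 with DMSO), and of the sensory-defining list 7 of 11 (2.22 and 3.88). Of 16 motor identity factors tested 11 were higher, and of 29 genes of a longer sensory list 13. These 13 include trpv1, not read as neuronal below, and calca, with 93.9% of its UMIs in DMSO members in 1 cell. No gene of these lists was at least 4-fold lower in both libraries. The count of higher genes was 200 with cells weighted equally, and 171 with cells thinned to 4000 UMIs, which also leaves out shallower cells and lowers the UMIs summed.

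mnx1, a homeodomain factor that defines motor neurons, had 122 CPM in CVT-10216 members and 227 CPM in DMSO members, against 6.94 and 2.95 CPM in other neurons. The log2 ratios were 4.13 (3.83 to 4.43) and 6.27 (5.87 to 6.67). A UMI of mnx1 was present in 33.3% of CVT-10216 and 30.3% of DMSO members (22.6 and 27.1% after thinning), against 4.46 and 2.24% of other neurons. No macrophage held one, which allows shares of up to 3.08% with CVT-10216 and 4.25% with DMSO. Its paralog mnx2b was also higher, at log2 ratios of 3.61 with CVT-10216 and 5.51 with DMSO. chata, choline acetyltransferase, which makes acetylcholine, had 198 and 237 CPM in CVT-10216 and DMSO members, against 22.3 and 12.8 CPM in other neurons (log2 ratios 3.15 and 4.21). It was seen in 44.7 and 40.8% of the members. slc18a3a, which loads acetylcholine into vesicles, had 151 and 178 CPM, against 25.4 and 19.2 CPM in other neurons (2.57 and 3.22). The choline transporter gene slc5a7a was the member of the list that stayed under 4-fold, at 66.1 and 42.1 CPM against 24.5 and 16.6 CPM (1.44 and 1.37).

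Further genes of the motor identity list, and crabp1b, were also higher in members than in other neurons. The LIM homeodomain gene lhx4 had 192 CPM in CVT-10216 members and 346 CPM in DMSO members, against 18.4 and 11.4 CPM in other neurons (log2 ratios 3.39 and 4.92). isl2a and isl2b, the paralogs of isl1 that later motor and sensory neurons use, were higher by log2 ratios of 3.08 and 3.99 with CVT-10216 and of 4.70 and 5.51 with DMSO. isl2a was seen in 48.8% of CVT-10216 and 48.7% of DMSO members. nkx6.1, a progenitor and motor neuron factor, had 26.9 and 34.4 CPM in members, against 6.46 and 3.73 CPM (2.08 and 3.24). crabp1b, which binds retinoic acid in the cytoplasm, had 296 and 644 CPM in members, against 29.4 and 13.9 CPM. Neither isl2b nor crabp1b was particular to motor-like members. Leaving out weakly neuronal members, isl2b had 35 CVT-10216 and 19 DMSO UMIs in motor-like members, against 260 and 201 in sensory-like members. For crabp1b these were 40 and 58, against 269 and 267. All UMIs of these cells were 183761 and 90532 for motor-like members, against 495135 and 228090 for sensory-like members. The motor identity list also holds aldh1a2, an enzyme that makes retinoic acid, with 69.4 and 86.0 CPM in members against 13 and 2.16 CPM, but 65 of its 85 UMIs in CVT-10216 members and 44 of its 45 UMIs in DMSO members lay in weakly neuronal members. Without those it had 22.4 and 2.58 CPM, so its place among the 11 factors rests on them.

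Among sensory factors, pou4f1, a POU homeodomain gene of sensory neurons, had 256 CPM in CVT-10216 members and 199 CPM in DMSO members, against 21.9 and 9.08 CPM in other neurons. Its log2 ratios were 3.55 (3.35 to 3.73) and 4.46 (4.12 to 4.78), and 36.6 and 31.6% of the members held a UMI (23.5 and 17.1% after thinning). prdm12b, whose mammalian counterpart is needed for pain-sensing neurons, had 184 and 275 CPM in members, against 13.6 and 2.88 CPM in other neurons (3.76 and 6.57). It came from fewer cells than pou4f1, 17.1% of CVT-10216 and 21.1% of DMSO members. drgx, a homeobox gene of dorsal root ganglia, had 104 and 193 CPM against 24.9 and 13.1 CPM (2.06 and 3.88), and tlx3b 58.8 and 87.9 CPM against 4.69 and 2.25 CPM (3.65 and 5.30).

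The sensory receptors were carried by few members. p2rx3a, an ATP-gated channel of sensory endings, had 81.7 CPM with CVT-10216 and 68.8 CPM with DMSO in members, against 3.98 and 0.334 CPM in other neurons, but it came from 10 CVT-10216 and 4 DMSO cells. Of the neurotrophin receptors, which bind survival factors from the target tissue, ntrk2a had 28.6 and 51.6 CPM in members, against 6.2 and 3.86 CPM. The low-affinity receptor gene ngfra was broader, in 40.7% of CVT-10216 and 36.8% of DMSO members (log2 ratios 2.53 and 3.60). The heat-sensing channel gene trpv1 had 12.2 and 17.2 CPM in members, but 98.2 and 95.2 CPM in macrophages, so its level in members was not read as neuronal.

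Peptide genes showed a wide and a narrow pattern. adcyap1b, which encodes the peptide PACAP, was seen in 76.4% of CVT-10216 and 76.3% of DMSO members, against 27.7 and 27.2% of other neurons, at 734 and 1015 CPM against 150.4 and 146 CPM (log2 ratios 2.29 and 2.79). tac1, the substance P precursor gene, had 58.0 and 87.9 CPM in members, against 4.83 and 2 CPM, and came from 13 CVT-10216 and 8 DMSO cells.

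Among structural genes, neurofilament subunits, which widen long axons, were high. nefmb had 389.5 CPM in CVT-10216 members and 268 CPM in DMSO members, against 23.5 and 5.68 CPM in other neurons (log2 ratios 4.05 and 5.56), and neflb had 373 and 227 CPM against 16.5 and 3.46 CPM (4.50 and 6.04). Of 10 genes of the intermediate filament list tested, 4 were at least 4-fold higher, prph among them by the rule, where 3.14% of all genes were. The tubulin gene tubb2 had 247 and 206 CPM against 18.2 and 9.17 CPM (3.76 and 4.50), and the stathmin gene stmn4 had 198 and 166 CPM against 16 and 4.16 CPM (3.63 and 5.32). These levels rested on a part of the cells, since nefmb was seen in 25.2% of CVT-10216 and 18.4% of DMSO members. sncga, the gamma-synuclein gene, was narrower still: 1 CVT-10216 cell held 57 of its 71 UMIs in that library.

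Some surface and channel genes were higher than in other neurons as well. alcama, an adhesion molecule of growing axons, had 1122 CPM in CVT-10216 members and 1835 CPM in DMSO members, against 268 and 215 CPM in other neurons (log2 ratios 2.07 and 3.1), and was seen in 77.2 and 85.5% of members. Its paralog alcamb (3.05 and 4.18) and the contactin gene cntn4 (3.79 and 4.72) were higher as well. Of 43 axon guidance receptors tested 8 were at least 4-fold higher, where 3.14% of all genes were. Of 21 potassium channel genes tested 5 were higher, including kcna1a, a channel that repolarises the axon, at 88.2 and 132 CPM against 7.38 and 2.98 CPM. Of 12 sodium channel genes 2 were higher, scn8ab (2.24 and 3.82) and scn4ba (3.90 and 3.94), with medians over the list of 0.42 and 0.33. Of 22 calcium channel genes tested 5 were higher and 1 (cacna2d3) lower. The vesicular glutamate transporter gene slc17a6b had 129.8 and 120.4 CPM in members, against 21.8 and 9.11 CPM, and slc17a7b had 35.1 and 9.56 CPM against 1.53 and 0.364 CPM.

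Some genes outside the lists ranked with these factors. zgc:158291, a gene with no given name, had 113 and 141 CPM in CVT-10216 and DMSO members (log2 ratios 4.24 and 4.53). pcp4a, which binds calmodulin, had log2 ratios of 3.58 and 4.75, the G-protein subunit gene gng13b 3.63 and 3.41, the pentraxin gene nptx1l 3.26 and 4.91, and the forkhead gene foxb1b 3.51 and 4.41. meis3 was the single gene of the enteric list at least 4-fold higher (3.33 and 3.71), with 41 of its 57 CVT-10216 UMIs and 13 of its 19 DMSO UMIs in weakly neuronal members. Across 9 groups of cells in 2 libraries (18 points), the genes whose log2 CPM followed isl1 most closely were alcama and flot2a (Pearson r = 0.94 each), snrka (0.93), scrt2 and isl2a (0.92 each) and arhgap35a (0.91). The points share libraries and the deep groups, and isl1 was among the genes that chose the members, so these are descriptions.

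**Figure D2:**
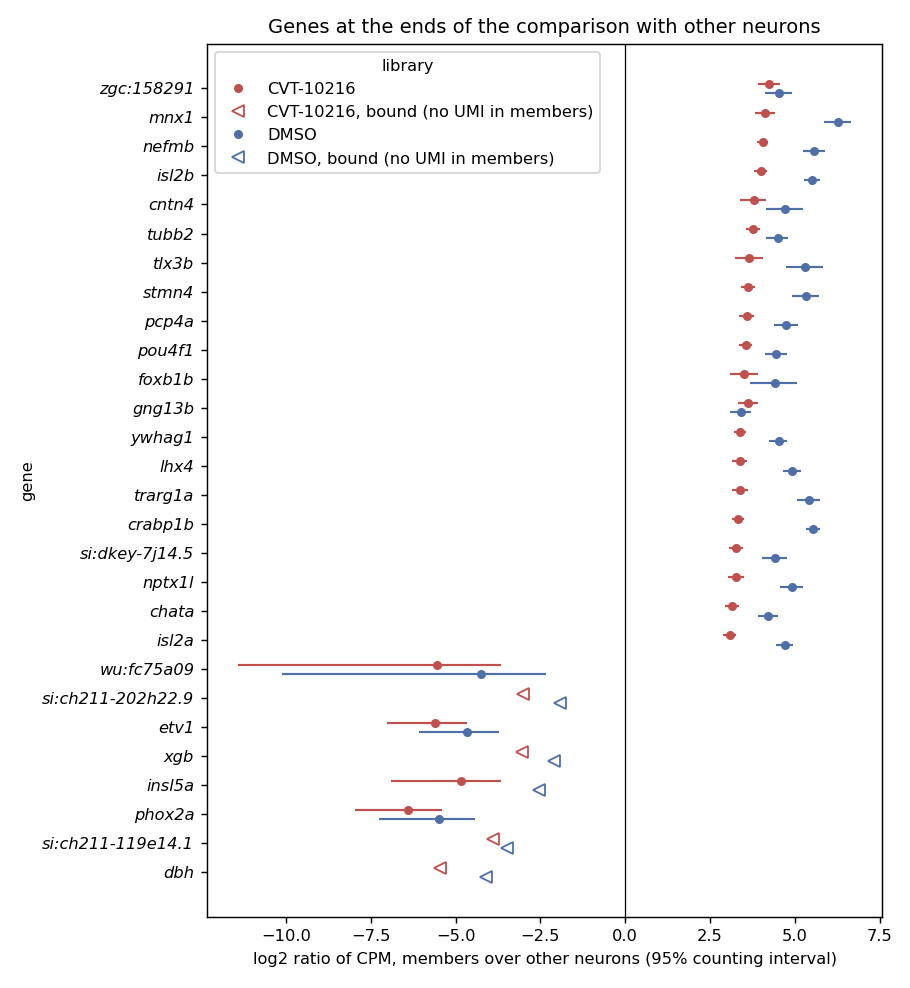
Log2 ratio of members over other neurons (x axis) for the 20 genes at the higher and the 8 at the lower end (y axis), for the CVT-10216 and the DMSO library, with exact 95% intervals for counting error. Genes of the rule were left out, and the higher genes had a UMI in at least 20% of members. Open triangles are bounds set by 3 UMIs where members held no UMI of the gene. The higher genes lie right of 0 in both libraries, for example mnx1 at 4.13 and 6.27, and dbh, phox2a and etv1 lie left of 0.

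Genes of sympathetic and enteric neurons were low in members, which were chosen to lack phox2bb. dbh, which makes noradrenaline, had no UMI in members of either library, against 108 and 98.5 CPM in other neurons, and was at least 44.1-fold lower with CVT-10216 and at least 17.2-fold lower with DMSO. hand2, a sympathetic and enteric factor, had 18.0 and 47.8 CPM in members, against 920.0 and 893 CPM (log2 ratios −5.65 and −4.19), and phox2a had 4.90 and 9.56 CPM against 453 and 477 CPM. The ETS factor gene etv1 was lower too (−5.60 and −4.66). Of 24 cell cycle genes 1, aurkb, was at least 4-fold lower, with medians over the list of −1.47 and −2.16.

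Neurons with slc6a5 or slc32a1 were closer to members in depth than phox2bb neurons, with medians of 4387 UMIs with CVT-10216 and 3129 with DMSO. In that comparison 94 of 7918 genes (1.19%) were at least 4-fold higher in members in both libraries and 78 (0.985%) lower. The sensory-defining list kept 4 of 10 genes (among them p2rx3a, tlx3b and prdm12b), and the motor-defining list 0 of 4, with median log2 ratios of 1.86 and 1.71. isl2a remained higher, at 251 CPM with CVT-10216 and 348 CPM with DMSO in members, against 18.3 and 26.9 CPM (3.76 and 3.66), as did the low-affinity neurotrophin receptor gene ngfra (2.68 and 2.62), alcama, alcamb, nefmb and neflb. Several axonal genes were not at least 4-fold higher in both libraries here: tubb2 (2.12 and 1.12), stmn4 (1.73 and 2.93), cntn4 (1.85 and 1.80), kcna1a (1.38 and 2.13), scn8ab (0.19 and 1.07), scn4ba (1.34 and 0.04) and slc17a6b (1.24 and 1.45). Of 42 pan-neuronal genes 2 were higher, with medians of −0.17 and −0.35. Of 14 motor identity factors tested 3 were higher (isl2a, isl2b and aldh1a2), and lhx4 was not. Among 15 neuropeptide genes tested tac1 alone was higher, and adcyap1b was not.

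Genes of inhibitory transmission were lower in members than in these neurons, which were picked for 2 of them. Besides the 2 transporter genes of the rule, gad1b, which makes GABA, had 1.63 CPM with CVT-10216 and no UMI with DMSO, against 72.1 and 120.3 CPM in neurons with slc6a5 or slc32a1. The GABA uptake transporter gene slc6a1b had 3.27 and 7.65 CPM in members, against 249 and 276 CPM. Of 20 spinal interneuron factors tested, 11 were at least 4-fold lower. Against all other neurons this was not so: of 8 GABA and glycine genes tested the 2 lower ones were slc6a5 and slc32a1 themselves, and of 23 interneuron factors 1 (pax2a) was lower and 1 (barhl1a) higher. pax2a, a factor of inhibitory spinal interneurons, had 14.7 and 3.82 CPM in members. Neurons with slc6a5 or slc32a1 had 779 and 1293 CPM of it (log2 ratios of members over these neurons −5.69 and −8.08).

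Motor-like and sensory-like members were compared next, leaving out weakly neuronal members, so that 39 CVT-10216 and 28 DMSO motor-like cells stood against 38 and 26 sensory-like cells. The motor-like cells were shallower, at medians of 3582 UMIs with CVT-10216 and 2929.5 with DMSO, against 10452 and 7658 UMIs in sensory-like cells. Of 2899 genes, 56 (1.93%) were at least 4-fold higher in motor-like members in both libraries and 91 (3.14%) lower. The 2 defining lists sorted the cells, so their levels describe that sorting: mnx1 had 571 and 895 CPM in motor-like members and no UMI in sensory-like members, and pou4f1 had 16.3 and 0 CPM in motor-like members, against 517 and 447 CPM in sensory-like members.

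Outside those lists, motor-like members carried a set of their own. lhx4 had 969 CPM with CVT-10216 and 1480.1 CPM with DMSO in motor-like members, against 2.02 CPM and no UMI in sensory-like members. slit3, a secreted ligand that repels axons, had 865 and 1557 CPM against 22.2 and 26.3 CPM (log2 ratios 5.22 and 5.78). gfra3, a co-receptor of the GDNF family, had 261 and 464 CPM against 4.04 and 0 CPM, and foxb1b had 229 and 188 CPM against 2.02 and 0 CPM. tac1 had 136 and 376 CPM in motor-like members, from 5 cells of each library, and no UMI in sensory-like members, so it was at least 22.5-fold and 28.6-fold higher. More members than these held tac1, as given above. The others held both lists or neither, or were weakly neuronal, so tac1 was not confined to motor-like members. The tac1 peptides are best known from pain-sensing neurons, and here none of these sensory-like members held a UMI. The orphan receptor gene nr2f1a (2.91 and 3.75), the glycine receptor subunit gene glra1 (2.33 and 3.72), the potassium channel gene kcnma1a (2.74 and 3.21) and ache, which breaks acetylcholine down (2.13 and 2.35), were higher in motor-like members.

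On the sensory-like side, the genes outside the defining list included receptors, channels and a filament. PIEZO2, a channel that opens on touch, had 16.3 CPM with CVT-10216 and 0 CPM with DMSO in motor-like members, against 232 and 386 CPM in sensory-like members. The sodium channel gene scn1laa had no UMI in motor-like members, against 158 and 101 CPM, which makes it at least 9.65-fold and 3.04-fold lower there. hmx4, a homeobox gene, and mcamb, an adhesion molecule gene, also had no UMI in motor-like members, against 149 and 193 CPM for hmx4 and 158 and 294 CPM for mcamb. tlx2 had 10.9 and 11 CPM against 343 and 596 CPM (log2 ratios −4.66 and −5.17), and the neurofilament gene nefma had 32.7 and 0 CPM against 1054 and 412 CPM. uchl1, which encodes an abundant neuronal ubiquitin hydrolase, was lower in motor-like members as well (−3.03 and −2.48).

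Other genes did not separate the kinds. isl2a had 348 and 486 CPM in motor-like members, against 315 and 526 CPM in sensory-like members, with log2 ratios of 0.15 (−0.30 to 0.57) and −0.10 (−0.65 to 0.40). gap43, a growth cone protein gene, had 811 and 1171 CPM against 689 and 960.1 CPM (0.24, −0.05 to 0.52, and 0.29, −0.06 to 0.63). The intervals cover 0 in both libraries for both genes. nefmb also differed little (−0.36 and 0.26), unlike nefma. Of 20 genes of a dissociation stress list tested, 2 were at least 4-fold lower in motor-like members, where 3.14% of all genes were: ier2a at 27.2 and 33.1 CPM against 158 and 246 CPM (−2.41 and −2.68), and fosb at 10.9 and 0 CPM against 92.9 and 140.3 CPM. Dissociation moves such genes in many tissues, and its part here was not tested.

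A further set of members carried otpa, the orthopedia homeobox gene used by several kinds of central neurons. With at least 3 otpa UMIs there were 32 members, 24 with CVT-10216 and 8 with DMSO, and none was weakly neuronal. By the defining lists 19 of them counted as sensory-like, 7 as neither, 5 as both and 1 as motor-like. otpa had 8617 CPM in these CVT-10216 members and 6038 CPM in the DMSO ones, against 10.2 and 5.61 CPM in the other members that were not weakly neuronal. These cells were chosen by their otpa UMIs, so this difference follows from the choice. otpa was also present in neurons with slc6a5 or slc32a1, at 888 and 1433 CPM, and was near background in macrophages, at 1.84 and 1.07 CPM.

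The sensory-like members with otpa (14 CVT-10216 and 5 DMSO cells) were set against those without it (24 and 21 cells). They were shallower, at medians of 3500 and 2063 UMIs, against 18334 and 8766 UMIs. pou4f2, a relative of pou4f1 best known from retinal ganglion cells, had 473 and 840.4 CPM with otpa, against 13.8 and 0 CPM without (log2 ratio over both libraries 5.76, 4.61 to 7.39). mab21l1 had 1044 and 1604 CPM against 62.2 and 23.3 CPM (4.52), the BarH-like homeobox gene barhl1a 293 and 535 CPM against 4.61 and 4.65 CPM (5.99), and the axon guidance receptor gene robo3 734 and 917 CPM against 57.6 and 23.3 CPM (4.04). meis1b, a homeodomain partner of Hox proteins, had 2348 and 2827 CPM against 242 and 126 CPM (3.58). pou4f1 itself was alike within its interval, at 571 and 764 CPM with otpa, against 509 and 428 CPM without (0.34, −0.16 to 0.78).

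Several genes of peripheral sensory neurons were lower or absent with otpa, and others were not. prdm12b had no UMI in sensory-like members with otpa, against 337 CPM with CVT-10216 and 391 CPM with DMSO without it, and was at least 8.79-fold lower. PIEZO2 (265 and 409 CPM without otpa, at least 7.76-fold lower with it), p2rx3a (221 and 167 CPM, at least 5.05-fold) and the neurofilament gene neflb (at least 17.5-fold) also had no UMI with otpa. isl2a had 1 UMI with otpa against 275 without (log2 ratio −4.40, −10.29 to −2.49), and prph had 81.5 and 0 CPM against 556 and 507 CPM (−2.87, −4.64 to −1.77). On the other side, tlx3b (0.21, −1.04 to 1.15), neurod1 (0.22, −0.56 to 0.87) and slc17a6b (0.38, −0.39 to 1.01) did not differ beyond counting error, and tlx2 was higher with otpa (1.18, 0.75 to 1.58). The sensory-defining list thus joined cells that differ in part of the sensory genes, and the cells with otpa are called here by that gene and not by a sensory name. The other cells were not separated further into Rohon-Beard and dorsal root ganglion neurons.

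sox10, a neural crest and glial factor, marked part of the sensory-like members without otpa. It was seen in 20 of 45 of these cells, 44.4% (29.6 to 60.0%), at 122 CPM with CVT-10216 and 126 CPM with DMSO, and had no UMI in those with otpa, where it was at least 3.06-fold lower. A sox10 UMI was also seen in 11% of CVT-10216 and 8.24% of DMSO macrophages. After thinning, 29.2% of the CVT-10216 and 4.76% of the DMSO cells without otpa held one, against 5.13 and 0% of macrophages, so the DMSO share was not above that of macrophages beyond counting error. The summed glial list had 2174 CPM in CVT-10216 and 1694 CPM in DMSO members, against 1509 and 1067 CPM in other neurons and 387 and 376 CPM in macrophages. Whether sox10 in these cells is their own was not tested.

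**Figure D3:**
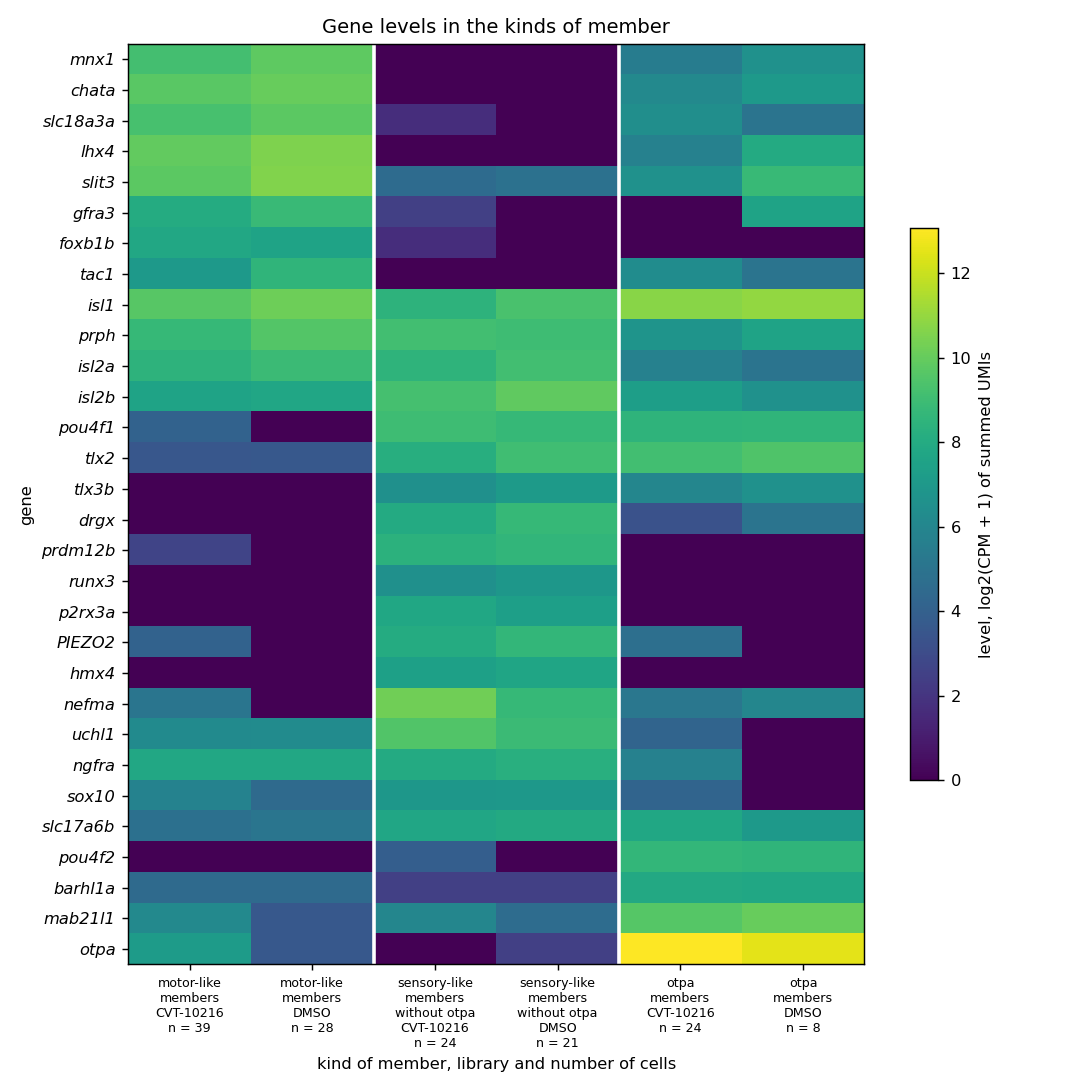
Log2 of CPM + 1 of named genes (y axis, 1 line of tiles per gene) in motor-like members, sensory-like members without otpa and otpa members of each library (x axis, with the number of cells), on a colour scale. mnx1, chata, lhx4 and slit3 are bright in motor-like members, prdm12b, PIEZO2 and nefma in sensory-like members without otpa, and pou4f2, mab21l1 and barhl1a in otpa members.

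Hox genes, whose paralog groups are used in order along the body axis, separated these kinds again. Summed over Hox 9 to 13, the posterior groups, motor-like members had 4626 CPM (4319.8 to 4947) with CVT-10216 and 5954 CPM (5462 to 6478) with DMSO. otpa members had 5402 CPM (4982 to 5849) and 5498 CPM (4709 to 6381). Sensory-like members without otpa had 445 CPM (384 to 512) and 698 CPM (590.5 to 819), about an order of magnitude less. Neurons with slc6a5 or slc32a1 had 4158 and 6351 CPM, phox2bb neurons 294 and 130.3 CPM, and macrophages 19.0 and 21.4 CPM. The anterior groups, Hox 1 to 8, varied less, at 2209 and 2386 CPM in motor-like members, 5367 and 3400.5 CPM in otpa members and 1651 and 1837 CPM in sensory-like members without otpa.

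Single Hox genes showed the same split. hoxc10a had 305 CPM with CVT-10216 and 530.2 CPM with DMSO in motor-like members, against 68.7 and 39.5 CPM in all sensory-like members (log2 ratios 2.14 and 3.69), and hoxa11b had 381 and 442 CPM against 74.7 and 78.9 CPM (2.34 and 2.46). hoxd12a had 669 and 917 CPM in sensory-like members with otpa, against 13.8 and 18.6 CPM without (5.47 over both libraries). Against phox2bb neurons 22 of 44 Hox genes were at least 4-fold higher in members in both libraries, where 711 of 14140 genes (5.03%) were higher and 200 (1.41%) lower, and against neurons with slc6a5 or slc32a1 0 of 41 were.

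**Figure D4:**
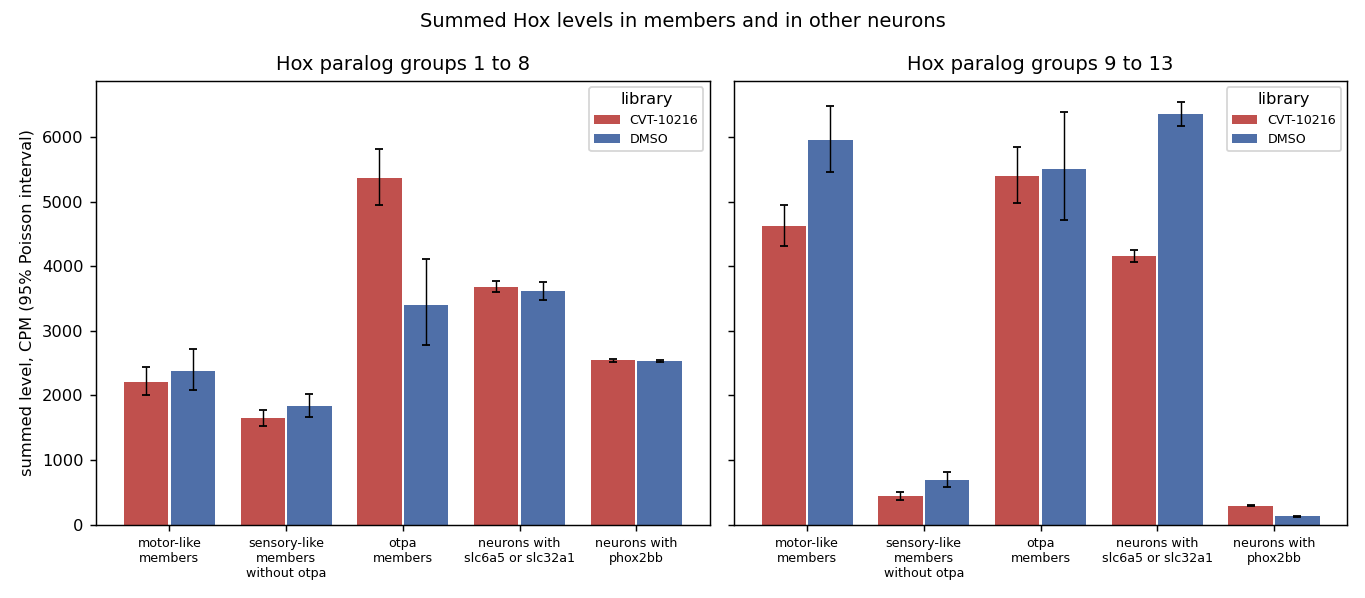
Summed CPM (y axis, bars with exact 95% Poisson intervals) of Hox 1 to 8 (left) and Hox 9 to 13 (right) in kinds of members and in other neurons (x axis), for the CVT-10216 and the DMSO library. Motor-like members, otpa members and neurons with slc6a5 or slc32a1 carry Hox 9 to 13 transcripts, at 4158 to 6351 CPM in all, and sensory-like members without otpa and phox2bb neurons stay under 700 CPM.

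Between the conditions, 222 of 4492 genes (4.94%) were at least 2-fold higher in CVT-10216 members than in DMSO members and 73 (1.63%) at least 2-fold lower, with a median log2 ratio over all genes of −0.03. Most of the named genes at both ends came mainly from few cells. ins, the insulin gene, had 164 CPM in CVT-10216 members and 20274 CPM in DMSO members, and all its UMIs were in 1 cell of each library. The DMSO cell held 10605 ins UMIs among 37893, with 1891 of the somatostatin gene sst2, 15 of mnx1, 16 of isl1, 0 of prph, 2 of elavl3 and 3 of elavl4. It counted as motor-like through mnx1, a gene that pancreatic endocrine cells also use with isl1, and it was 1 of the 9 weakly neuronal DMSO members. The CVT-10216 cell held 1667 UMIs of sst1.1 and 201 of ins. sst2, sst1.2, calca, gck and scgn at the lower end, and sst1.1 at the higher end, had 1 or both of these cells as their main source: 93.9% of calca UMIs in the DMSO members were in 1 cell, and 99.0% of sst1.1 UMIs in the CVT-10216 members.

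At the higher end stood genes of pigment and connective tissue cells. pnp4a, a gene of iridophores, had 566 CPM in CVT-10216 members and 32.5 CPM in DMSO members (log2 ratio 4.08), with 40.1% of the CVT-10216 UMIs in 2 cells. The collagen gene col1a1a had 1181 CPM and 76.5 CPM, with 89.1% of the CVT-10216 UMIs in 2 cells. Of its 1446 UMIs in CVT-10216 members, 1313 lay in sensory-like members that were not weakly neuronal. The summed pigment list had 1591 CPM in CVT-10216 members and 321 CPM in DMSO members, against 2846 and 1214 CPM in other neurons and 1609 and 1067 CPM in macrophages. The epithelial list had 1351 CPM and 461 CPM in members, against 899 and 483 CPM in other neurons. Of the 10 members in which the pigment list passed 50 UMIs per 10000, 9 came from the CVT-10216 library, and 6 of the 10 were weakly neuronal. Whether these UMIs are the cells' own was not tested.

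Without those 27 members, and counting only genes seen in at least 20% of the remaining cells, 20 of 2894 genes (0.691%) were at least 2-fold higher in the 105 CVT-10216 members than in the 67 DMSO members and 22 (0.760%) at least 2-fold lower. The median log2 ratio was −0.11. col1a1a, seen in 8 DMSO cells over all members, was left out by the 20% limit, although most of its CVT-10216 UMIs remained. pnp4a then had a log2 ratio of 2.41, with 85.3% of its CVT-10216 UMIs in 1 cell, and ins, sst2, sst1.2 and sst1.1 had too few UMIs for a ratio. CABZ01021592.1, a gene with no given name, led the higher end with 2195 CPM in CVT-10216 members and 227 CPM in DMSO members (3.27, 2.97 to 3.60), with 42.4% of the CVT-10216 UMIs in 1 cell. Its ratio was 3.33 (2.86 to 3.88) in motor-like members and 0.47 (−0.06 to 1.05) in sensory-like members. It was high with CVT-10216 in other neurons, at 4070.5 CPM against 1139.9 CPM with DMSO, and in macrophages, at 3342 CPM against 771 CPM. The matricellular protein gene sparc had 431 CPM with CVT-10216 and 56.7 CPM with DMSO (33.2% of the CVT-10216 UMIs in 1 cell). pfkfb4b, a regulator of glycolysis, was the most evenly spread of the genes given here for the higher end, at 109.7 CPM with CVT-10216 and 41.2 CPM with DMSO (1.37, 0.64 to 2.27), in 52.4% and 20.9% of cells. At the lower end were egr4, an activity-dependent factor gene, at 64.9 CPM with CVT-10216 and 235 CPM with DMSO (−1.85, −2.35 to −1.36), and gadd45ga, with 64.4% of its DMSO UMIs in 1 cell.

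Most genes of the motor-defining and sensory-defining lists differed less between the conditions. In the members that were not weakly neuronal, mnx1 had 160.0 CPM with CVT-10216 and 268 CPM with DMSO (log2 ratio −0.75, −1.12 to −0.37), and chata 255 CPM and 319.7 CPM (−0.33, −0.65 to 0.00). Among motor-like members alone mnx1 had a ratio of −0.65 (−1.08 to −0.21). In those cells elavl3 had a ratio of −0.79 (−0.96 to −0.62). Their summed pan-neuronal list had 17642 CPM with CVT-10216 and 24058 CPM with DMSO, and their pigment list 2275 and 298 CPM. Whether the mnx1 difference goes beyond this lower neuronal sum was not tested. pou4f1 had 349 CPM with CVT-10216 and 268 CPM with DMSO (0.38, 0.06 to 0.72), prdm12b 199 CPM and 255 CPM (−0.36), and drgx 132 CPM and 242 CPM (−0.88, −1.28 to −0.47). Counting error alone does not cover the difference in mnx1 or drgx, but the spread between libraries of 1 condition is unknown. Over all members, 4.94% of all genes tested were at least 2-fold higher with CVT-10216 and 1.63% lower. Beside that, 0 of 4 motor-defining and 0 of 10 sensory-defining genes tested were at least 2-fold apart, near those shares for lists this short. mnx2b, with too few UMIs for that count, had 17.9 CPM with CVT-10216 and 46.4 CPM with DMSO in the members that were not weakly neuronal (−1.37, −2.44 to −0.32), in 8.57 and 20.9% of cells. Over all members, 2 of 18 genes tested from the longer sensory list (six1b and eya1) were at least 2-fold higher and 1 (calca) lower. Of 12 motor identity factors 1 (olig2) was higher. In sensory-like members that were not weakly neuronal, eya1 had 79 UMIs with CVT-10216 and 4 with DMSO, and six1b 70 and 5.

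The genes of the inhibitor's target were low in these neurons. Other aldehyde enzymes were lower or higher than these. Among the lower were aldh16a1, at 15.5 CPM with CVT-10216 and 7.65 CPM with DMSO over all members, and aldh18a1, at 11.4 and 13.4 CPM. aldh2.1 had 27.8 CPM in CVT-10216 members and 30.6 CPM in DMSO members (log2 ratio −0.16, −1.04 to 0.82), and aldh2.2 had 24.5 CPM and 15.3 CPM (0.62, −0.48 to 2.02). adh5, the main enzyme that clears formaldehyde with glutathione, had 152 CPM with CVT-10216 and 175 CPM with DMSO in the members that were not weakly neuronal (−0.21, −0.63 to 0.24), in 46.7 and 53.7% of cells. aldh9a1a.1 had 124 CPM and 144 CPM there (−0.22, −0.69 to 0.27). None of 8 aldehyde enzyme genes tested was at least 2-fold apart, near the shares over all genes of 4.94% higher and 1.63% lower. Of 7 genes of de novo purine synthesis tested, 6 were at least 2-fold higher with CVT-10216 over all members, where 4.94% of all genes were. The differences were smaller without the weakly neuronal members: gmps had a log2 ratio of 1.23 over all members and 0.00 without them, impdh1b 1.73 and 0.32, prps1a 1.21 and 0.41, and adsl 1.60 and 0.98 (−0.46 to 3.13). atic had 3.63 over all members and 1.35 (−0.22 to 3.93) without them, there from 20 UMIs with CVT-10216 and 3 with DMSO. paics, which catalyses steps of that pathway, had 189 CPM with CVT-10216 and 49.7 CPM with DMSO over all members (1.91). Without the weakly neuronal members it had 102 CPM with CVT-10216, 39.6% of it in 1 cell, and 54.1 CPM with DMSO (0.89, 0.21 to 1.67). In motor-like members alone the paics ratio was 1.94 (0.82 to 3.55), from 50 UMIs with CVT-10216 and 6 with DMSO. The same cells held UMIs of pigment genes, 166 of pnp4a with CVT-10216 and 6 with DMSO, and 185 and 13 of gch2. Whether their paics UMIs are the cells' own was not tested. In all the members that were not weakly neuronal, ccng1, a target of p53, had 169 CPM with CVT-10216 and 64.4 CPM with DMSO (1.37, 0.77 to 2.06). It was the single gene of 5 tested from the p53 list at least 2-fold higher over all members.

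**Figure D5:**
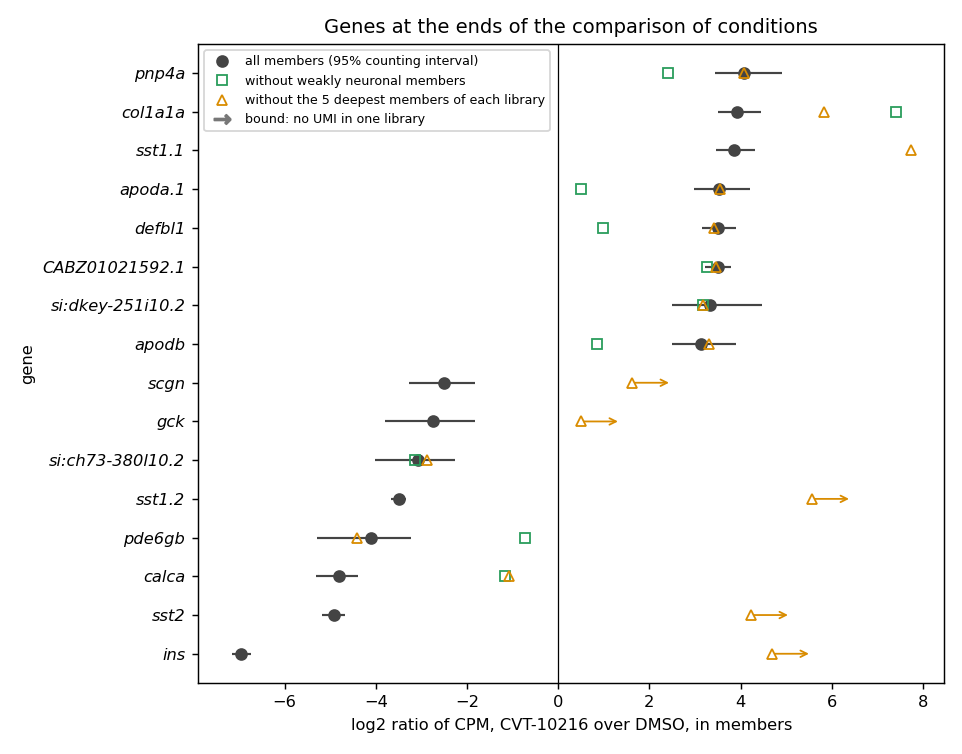
Log2 ratio of CVT-10216 over DMSO per gene in all members (circles with exact 95% intervals for counting error), without weakly neuronal members (green squares, missing where both libraries hold 3 UMIs or fewer) and without the 5 deepest members of each library (orange triangles). Arrows mark bounds where 1 library holds no UMI. ins lies at −6.95 over all members and has no value without the weakly neuronal ones, and CABZ01021592.1 lies at 3.5 over all members and 3.27 without them.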

How the data were processed

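The authors deposited UMI counts per gene and cell for both libraries in combined tables, before and after their quality filter. Per the labels, polyA RNA was made into 10x Chromium 3′ v3 libraries, and per the submitters' processing notes Cell Ranger (versions 2.1.1 and 3.1.0 are both named) and the genome build GRCz11 were used. The study's methods state that the libraries were aggregated, and barcode suffixes 1 and 2 were read as DMSO and CVT-10216 because only this reading matches the cell numbers those methods give. All values were whole numbers, and 0 columns of other samples were found. Total counts in filtered cells were 86348575 UMIs with CVT-10216 and 58976443 with DMSO.

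Members, lists and comparisons were chosen with earlier results of these data known. Counts were summed per cell group and library, scaled to CPM and compared as log2 ratios with 0.5 UMI added to each sum, without a test. Intervals were exact at the 95% level (conditional on the sum of both groups for ratios, Poisson for CPM, Clopper-Pearson for shares). Genes needed 50 summed UMIs, and calls needed 4-fold in both libraries, or 2-fold between conditions. A group with no UMI was given a bound from 3 UMIs. Macrophages held at least 10 UMIs of a macrophage list and none of elavl3 and elavl4. The weakly neuronal limit, the otpa minimum and the comparisons that use them were chosen after values had been seen, as was the use of PIEZO2 and sox10. Named genes were the defining lists, examples from the other lists, and genes at the ends of comparisons. Against other neurons these were the 20 highest and 8 lowest genes outside the rule genes, the highest with a UMI in at least 20% of members. Between motor-like and sensory-like members they were 15 at each end, outside the rule genes and defining lists, and between conditions 8 at each end. Other named genes, among them those given without weakly neuronal members, were chosen after their values had been seen. Since Scrublet called 1 cell in all, the 5% of cells with the highest scores were left out as an alternative. Genes are named by the symbols in the files, and no coordinates or sequences were used. The log2 ratios and their intervals were tested on simulated sums, for members over other neurons in the DMSO library and for the conditions in members. Those sums were drawn with Poisson counting error only. They hold no spread between cells or libraries, so the intervals were checked for counting error alone. Python 3.11.15, numpy 2.4.6, scipy 1.17.1, pandas 2.3.3, scanpy 1.11.5, matplotlib 3.10.9, R 4.3.3 and edgeR 4.0.16 (for TMM factors) were used. 1 gene of the sensory-defining list is not reported here.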

Additional observations from a re-analysis of the deposited data

Results flagged for a closer look

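For 8 genes the log2 ratio of members over other neurons pointed in opposite directions in the libraries, with intervals apart from 0. The difference between the libraries was not tested for any of them. Muscle genes were lower in members with CVT-10216 and higher with DMSO: actc1b had −1.31 with CVT-10216 and 1.05 with DMSO, the creatine kinase gene ckma −0.92 and 2.59, the myosin light chain gene mylpfa −1.32 and 1.81, and the parvalbumin gene pvalb2 −0.32 and 1.38. The haemoglobin gene hbae3 did the same, at −3.56 with CVT-10216 and 1.15 with DMSO. The summed muscle list had 431 CPM in CVT-10216 members and 210.3 CPM in DMSO members, against 944 and 92.3 CPM in other neurons, so the level in other neurons differed more between the libraries than that in members. Icn had 1.69 with CVT-10216 and −0.64 with DMSO, and eya1, a factor of sensory placodes and muscle, 0.39 and −0.99. The chaperone gene hspa8 had 0.10 and −0.11, close to 0 in both.

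Among 2077 barcodes that the authors left out by their quality filter, 4 met the rule for members, all of them in the CVT-10216 library. Their median was 858 UMIs, under the lowest member of that library at 1030.0 UMIs.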

How the results depend on the processing

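No paired analysis was possible because each condition had 1 library. The condition comparison has no fit without a library, for the same reason. Depth limits most values: members were shallower than other neurons, and a few deep cells carried much of each sum. The cause of each change below was not tested beyond what the setting itself removes.

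The share of filtered cells that met the rule was 2.18% with CVT-10216 at a minimum of 2 UMIs of isl1 and prph and 1.32% at a minimum of 5. It was 5.10% with CVT-10216 and 4.08% with DMSO over elavl3 or elavl4 positive cells, and 1.04% and 1.05% in cells thinned to 4000 UMIs. The share of members with motor-defining UMIs was 34.2% with CVT-10216 and 23.8% with DMSO after thinning to 4000 UMIs, and 40% with CVT-10216 after thinning to 2000. The share with sensory-defining UMIs was 61.0% with CVT-10216 at a minimum of 1 UMI and 61.1% at 5 UMIs of isl1 and prph, 64.3% with DMSO after thinning to 4000 UMIs, and 31.3% with CVT-10216 and 37.1% with DMSO after thinning to 2000.

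Genes at least 4-fold higher in members numbered 200 with cells weighted equally, 171 thinned to 4000 UMIs, 1070 at a minimum of 10 summed UMIs and 1108 in the DMSO library alone. Those lower numbered 123 thinned, 702 in the CVT-10216 library alone and 701 in the DMSO library alone. Between the conditions, 72 genes were at least 2-fold higher with CVT-10216 and 27 lower after thinning, 1128 and 630 at a minimum of 10 UMIs, and 48 were lower without the weakly neuronal members. Among genes at the ends of that comparison, the log2 ratio of gck turned to 0.19 after thinning and that of apodb to −1.35 without the highest Scrublet scores. Without the 5 deepest members of each library, DMSO members held no UMI of ins, sst2, sst1.2, gck or scgn, and the ratios turned to bounds of 4.68, 4.22, 5.56, 0.49 and 1.61. Thinning to 2000 UMIs, leaving out the weakly neuronal members and leaving out the 5 deepest members were chosen after seeing the data.

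None of 378 recomputed gene ratios of members over other neurons changed direction, and 263 of them stayed within their counting interval. Of 133 gene ratios between the conditions 7 changed direction, and of 55 list medians between the conditions none did.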
